A study of Mus musculus with 6 samples.

Results

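Interferon response genes are the antiviral genes that a cell switches on after interferon binds its receptor. A list of 41 such genes was followed in mouse bone marrow progenitors. The members were found by exact gene symbol in the array's probe annotation, and each was read by its probe set (a group of probes for a single transcript) of highest mean over the 6 arrays. In this way 39 of the 41 members were read, out of 18193 genes on the array. Isg15 and Ifi44 had no probe set that named them alone. A member was tested where its probe set lay above the 40th percentile of its array on at least 3 of the 6 arrays. That held for 38 members and for 12837 genes in all, and Mx2 did not reach it.

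The cells were lineage-negative, cKit-positive and Sca1-negative, a gate that holds myeloerythroid progenitors, and came from 6-week-old mice. All mice carried Mx1-cre and all had been given polyIC, a synthetic double-stranded RNA, in 3 injections of 20 mcg per g of body weight, with analysis 1 week after the last. The ICN2-negative group (3 arrays) was Mx1-cre+ and female. The ICN2-positive group (3 arrays) was Rosa-lsl-ICN2 Mx1-cre+ and male, and expressed the intracellular domain of Notch2 once the recombinase had removed a stop cassette. Genotype and sex cannot be told apart. The Mx1 promoter that drives the recombinase is itself induced by interferon and is active in many cell types besides the sorted ones. No mouse without polyIC was measured, so the comparison shows how active Notch2 goes with the level of these genes after polyIC and not what polyIC did. The labels do not say that the replicates were separate animals, so p-values measure only how far these samples spread, and part of that may be technical.

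PolyIC is sensed in the endosome by Toll-like receptor 3 and in the cytosol by the helicase MDA5, the product of Ifih1. Both routes lead to type I interferon, which acts through the receptor chains Ifnar1 and Ifnar2 on the kinases Jak1 and Tyk2. The signal ends at the interferon-stimulated response element (ISRE), a short motif in the promoters of many response genes, where Irf9 binds DNA. In bone marrow the response is known to rise within hours and to fade over days.

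The ISRE is the sequence that ties many of the members together, so stretches that carry it are shown for 6 members. RefSeq promoters of GRCm38.p6, each 250 bases before to 50 bases after a start, matched 31 of the 41 members by symbol (40 promoters). They were searched on both strands for GAAA, then any 2 bases, then GAAA, with overlapping matches allowed. The capitals mark the matches. Ifit1 and Ifit3 are shown as relatives with unlike values on 1 array, Rsad2 and Stat2 because the groups did not overlap, and Oas1a and Gbp3 because their matches form a longer repeat.
Ifit1 (chr19:34640769-34640848, plus strand): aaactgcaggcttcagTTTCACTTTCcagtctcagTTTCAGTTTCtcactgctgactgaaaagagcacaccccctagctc
Ifit3 (chr19:34583372-34583451, plus strand): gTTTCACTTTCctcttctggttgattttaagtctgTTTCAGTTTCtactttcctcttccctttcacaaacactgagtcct
Rsad2 (chr12:26456528-26456607, minus strand): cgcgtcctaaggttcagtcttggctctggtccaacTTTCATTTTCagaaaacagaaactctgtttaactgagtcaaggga
Stat2 (chr10:128270248-128270320, plus strand): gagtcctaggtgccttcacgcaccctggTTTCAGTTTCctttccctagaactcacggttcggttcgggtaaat
Oas1a (chr5:120907526-120907574, minus strand): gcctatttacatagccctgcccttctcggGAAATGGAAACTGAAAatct
Gbp3 (chr3:142559970-142560043, plus strand): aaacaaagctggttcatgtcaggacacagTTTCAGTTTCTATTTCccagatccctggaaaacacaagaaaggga

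A match was present in 16 of the 40 member promoters (40%) and in 3.44% of all 32851 promoters. By gene it was found in 15 of 31 members, Isg15 among them with 3 matches. Ifit1 and Ifit3 each held 2 separate matches, and in Oas1a and Gbp3 2 matches overlapped to give an unbroken repeat. In Ifih1, Ddx58 and Eif2ak2 the match lay among the 50 bases after the start or across it. The gamma-activated sequence TTCNNNGAA, searched in the same way, was in 9 of the 40 member promoters (22.5%) and in 8.3% of all promoters. A match is a description of these letters and not a measured binding site.

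The arrays were not alike within the ICN2-positive group. Over all probe sets, ICN2-positive replicate 1 correlated with replicates 2 and 3 at 0.984 and 0.988, which correlated with each other at 0.995, and the ICN2-negative arrays correlated at 0.994 to 0.995. With the ICN2-negative arrays, replicate 1 correlated at 0.972 to 0.977, and replicates 2 and 3 at 0.985 to 0.989. Replicate 1 was thus nearer to its own group than to the controls. In replicate 1 the difference between the 3' and 5' control probe sets of beta-actin, a sign of RNA quality, was 1.01 on the log2 scale, against 0.71 to 0.85 elsewhere. It was also highest there for Gapdh (0.73 against 0.63 to 0.66) and pyruvate carboxylase (1.97 against 1.46 to 1.90), but for the transferrin receptor replicate 1 (2.92) lay within the other arrays (2.86 to 3.28). Kit, the receptor used for the sort, lay at 10.38 to 10.50 in ICN2-negative arrays and at 10.15, 10.70 and 10.86 in ICN2-positive replicates 1 to 3 (log2 intensity). Its difference of 0.12 ± 0.19 (SE) was not called, and Ly6a, the gene of Sca1, was not read. Cd34, a stem and progenitor surface gene, lay at 12.31 to 12.44 in ICN2-negative arrays and at 9.50, 11.99 and 11.60 in ICN2-positive arrays. Ptprc, the pan-leukocyte gene CD45, lay at 11.53 to 11.87 and at 10.54, 11.80 and 11.46. In replicate 1 all 3 of these surface genes were below every ICN2-negative array. The endogenous Notch2 gene and the transgene share sequence, and the Notch2 probe sets differed: one was at 6.49 to 6.62 in ICN2-negative arrays and at 7.29, 7.35 and 7.52 in ICN2-positive arrays, the brighter one at 12.92 to 13.06 on all arrays. Which of them read the intracellular part is not known here. Differences of the members between the groups are given with all arrays and, for comparison, without replicate 1.

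In the comparison of the genotypes 1 of the 38 members rose, none fell and 37 did not pass (limma, Benjamini-Hochberg adjusted p under 0.05). That is 2.63% of the members, and 4.36% of all genes tested were called (2.59% higher and 1.78% lower). By unadjusted p under 0.05, 4 members passed (10.5%), beside 27.4% of all genes. The median difference of the members, ICN2-positive minus ICN2-negative, was -0.11 on the log2 scale, beside 0.02 over all genes. Positive differences were found in 13 members (34.2%, beside 53.0% of all genes) and negative ones in 25. The differences ran from -1.09 in Gbp3 to 0.68 in Cxcl10. In 32 of the 38 members the arrays of both groups overlapped. The groups did not overlap in 6 members (15.8%), and in 37.5% of all genes. Of the 6, Ifih1 and Ifi35 were higher and Dhx58, Stat2, Mx1 and Rsad2 lower in ICN2-positive arrays, and over all genes 20.7% were higher and 16.9% lower in this way. In such bulk samples, fewer cells of a type and less RNA per cell cannot be told apart.

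The members varied more among the ICN2-positive arrays than among the controls. The median SD of a member was 0.61 in ICN2-positive and 0.14 in ICN2-negative arrays, and over all genes it was 0.15 and 0.12. Most of this spread lay between a single array and the rest. ICN2-positive replicate 1 was the lowest of the 6 arrays in 31 of the 38 members (81.6%), and in 26.2% of all genes. It lay at least 1 below the ICN2-negative mean in 18 members (47.4%), and in 9.25% of all genes. The median member was -0.78 relative to the ICN2-negative mean in replicate 1, and 0.29 and 0.22 in the other ICN2-positive arrays, while the medians over all genes were 0.04, 0.01 and 0.01. Replicates 2 and 3 differed from each other by a median of 0.16 per member, and of 0.12 over all genes.

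**Figure D1:**
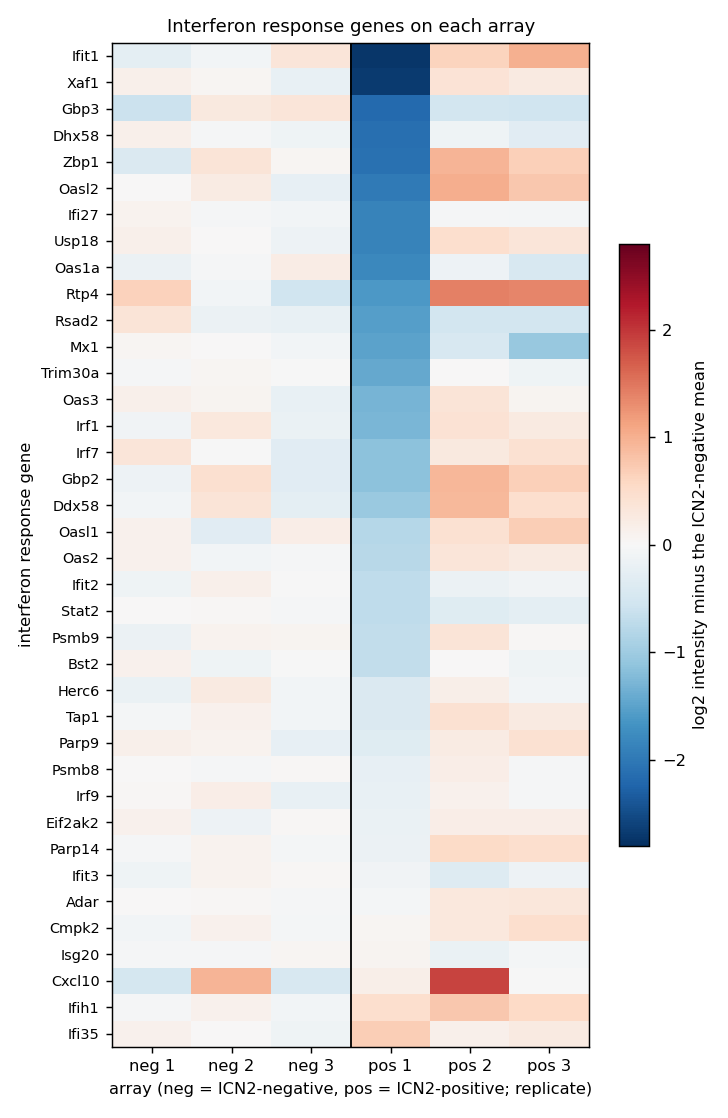
Log2 intensity minus the ICN2-negative mean (colour) for the 38 tested interferon response genes (rows) on the 6 arrays (columns), with genes ordered by their value in ICN2-positive replicate 1. Replicate 1 is the lowest array for 31 genes, and the other 2 ICN2-positive arrays are mostly at or above the ICN2-negative arrays.

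**Figure D2:**
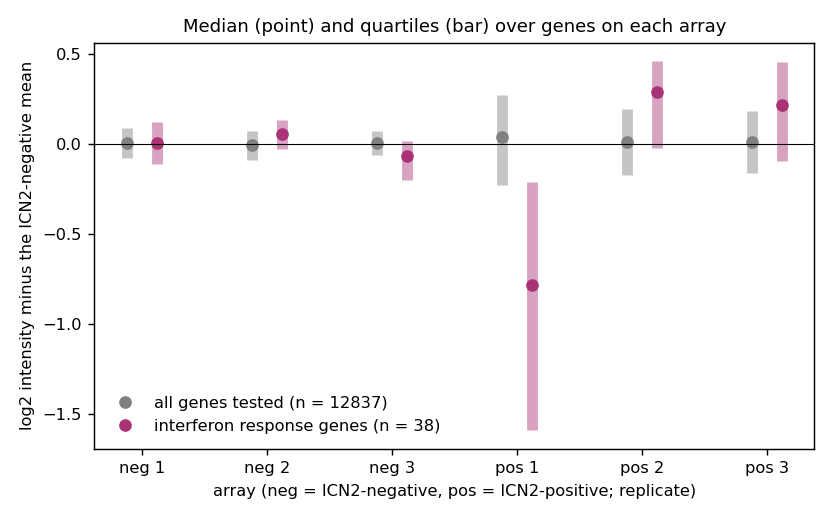
Median (points) and quartiles (bars) of log2 intensity minus the ICN2-negative mean on each array, for the 38 tested interferon response genes and for all 12837 genes tested. The median of the interferon response genes is -0.78 in ICN2-positive replicate 1, 0.29 in replicate 2 and 0.22 in replicate 3, and the medians over all genes stay near 0.

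Most members had a difference above 0 once replicate 1 was left out. Replicate 1 was the lowest array in 31 of the 38 members, so leaving it out had to raise their differences. The median difference was 0.26 (0.01 over all genes), and 26 of the 38 members had a positive one (68.4%, beside 52.0% of all genes). In that fit 3 members rose and none fell (7.89% called), beside 5.98% of all genes (2.91% higher and 3.08% lower). They were Ifih1, Oasl2 and Parp14. Both remaining ICN2-positive arrays lay above all 3 ICN2-negative arrays in 18 members (47.4%) and below them in 6 (15.8%), and these shares were 25.8% and 22.6% over all genes. The sign of the difference changed in 13 of the 38 members, and 13 also changed sign in at least 1 of the 5 fits that left out another array.

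Other cell type markers moved with replicate 1. The summed intensity of 9 granulocyte-monocyte progenitor genes was 80395 to 87959 in ICN2-negative arrays, 11270 in ICN2-positive replicate 1, 62817 in replicate 2 and 56538 in replicate 3. All 9 were below every ICN2-negative array in replicate 1. The sum of 10 monocyte, macrophage and dendritic cell genes was 19815 to 26438 in ICN2-negative arrays and 4066, 11093 and 8531 in ICN2-positive replicates 1 to 3, with 8 of the 10 below every ICN2-negative array in replicate 1. By contrast, the sum of 8 plasmacytoid dendritic cell genes was 6031 to 6451 in ICN2-negative arrays and 6546, 6545 and 6341 in ICN2-positive replicates 1 to 3. The sum of 8 erythroid genes was 52125 to 53123 in ICN2-negative arrays and 55871, 49752 and 52963 in ICN2-positive replicates 1 to 3. Hba-a1 was below the 40th percentile on all arrays. Mast cell and basophil genes moved in both directions. The sum of 7 was 9754 to 13959 in ICN2-negative arrays, 3048 in replicate 1, and 22778 and 18996 in replicates 2 and 3. The sum of 7 late neutrophil genes was 23985 to 30086 in ICN2-negative arrays and 9061, 26864 and 24145 in ICN2-positive replicates 1 to 3. The sum of 6 megakaryocyte genes was 1720 to 7184 and 1137, 2979 and 1916, and that of 7 B cell genes 2359 to 9942 and 677, 1846 and 1347. For 8 T and NK cell genes the sum was 11271 to 12784 and 8315, 12076 and 10384, although their median gene in replicate 1 was 0.80 above its ICN2-negative mean on the log2 scale. Of these 8 genes 6 were above the 40th percentile in replicate 1, but only 3 on the ICN2-negative array with the fewest. The offset may thus be taken in part against values under that limit. Pax5, a defining gene of B cells, and Tbx21, of the T and NK cell list, were under the 40th percentile on all arrays. The part of cell composition or RNA quality in the member values was not tested.

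Among the sensors of foreign nucleic acid, Ifih1 was the member that rose. Its log2 intensity was 10.45, 10.59 and 10.40 in ICN2-negative replicates 1 to 3 and 10.96, 11.23 and 11.05 in ICN2-positive replicates 1 to 3. All 3 ICN2-positive arrays were above all ICN2-negative arrays, replicate 1 included. The difference was 0.60 ± 0.10 (SE, n = 3 per group), a 1.51-fold rise (adjusted p = 0.0377). The call was kept without ICN2-positive replicate 1 (0.66, adjusted p = 0.0341). It was lost without any other single array, which were ICN2-negative replicates 1, 2 and 3 and ICN2-positive replicates 2 and 3 (0.52 to 0.65, adjusted p = 0.0714 to 0.141).

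The related helicases did not share this pattern. Ddx58, which encodes the RNA sensor RIG-I, was at 7.31, 7.75 and 7.11 in ICN2-negative arrays and at 6.35, 8.30 and 7.86 in ICN2-positive arrays. Replicate 1 was thus the lowest array and the other ICN2-positive arrays the highest (difference 0.11 ± 0.52, adjusted p = 0.906, and 0.69 without replicate 1). Dhx58, the regulator LGP2, was at 7.70 to 7.96 in ICN2-negative arrays and at 5.70, 7.69 and 7.49 in ICN2-positive arrays. The groups did not overlap, yet the difference of -0.85 ± 0.54 did not pass (adjusted p = 0.353), and it was -0.22 without replicate 1. Zbp1, a sensor of Z-form nucleic acid, was at 7.69, 8.45 and 8.15 in ICN2-negative arrays and at 6.01, 9.04 and 8.76 in ICN2-positive arrays (-0.16 ± 0.83, and 0.80 without replicate 1). The kinase gene Eif2ak2 (PKR) stayed between 10.76 and 11.14 on all 6 arrays (0.07 ± 0.14, and 0.20 without replicate 1).

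Of the 4 transcription factor genes none passed. Stat2 was at 7.90, 7.93 and 7.86 in ICN2-negative arrays and at 7.19, 7.56 and 7.63 in ICN2-positive arrays. Every ICN2-positive array was below every ICN2-negative array, with a difference of -0.43 ± 0.13 (adjusted p = 0.111) and of -0.30 without replicate 1 (adjusted p = 0.0776). Irf7, which amplifies interferon production, was at 7.73 to 8.40 in ICN2-negative arrays and at 6.91, 8.34 and 8.49 in ICN2-positive arrays. Irf1, a factor also induced by interferon gamma, was at 9.31 to 9.79 and at 8.22, 9.91 and 9.75. In both genes replicate 1 was the lowest array and the groups overlapped (differences of -0.15 ± 0.46 and -0.20 ± 0.47, and of 0.35 and 0.33 without replicate 1). Irf9, which binds the ISRE, differed by -0.04 ± 0.13 (0.04 without replicate 1) and kept within 9.93 to 10.31.

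The OAS enzymes make 2-5 oligoadenylate, which activates RNase L, and the OAS-like genes Oasl1 and Oasl2 were grouped with them by family. None of the 5 members passed, and in all 5 the lowest array was ICN2-positive replicate 1. Oasl2 was at 7.54, 7.75 and 7.30 in ICN2-negative arrays and at 5.56, 8.54 and 8.29 in ICN2-positive arrays. With all arrays its difference was -0.07 ± 0.81 (adjusted p = 0.965), and without replicate 1 it was 0.89 ± 0.16, or 1.85-fold (adjusted p = 0.0489). Replicate 1 was left out after its values were seen, and leaving out the lowest array had to raise the difference. Oasl1, the neighbour of Oasl2 on chromosome 5 and an inhibitor of Irf7 translation, was at 8.37 to 8.87 in ICN2-negative arrays and at 7.89, 9.12 and 9.38 in ICN2-positive arrays (0.11 ± 0.41, and 0.57 without replicate 1). Oas1a was at 10.25, 10.40 and 10.62 in ICN2-negative arrays and at 8.63, 10.29 and 9.97 in ICN2-positive arrays (difference -0.79 ± 0.44, adjusted p = 0.298). Without replicate 1 the difference was -0.29, and replicate 2 lay inside the ICN2-negative range. Oas2 and Oas3 differed by -0.06 ± 0.31 and -0.29 ± 0.44, and by 0.30 and 0.22 without replicate 1.

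The IFIT proteins bind foreign RNA. Ifit1 was at 6.85, 7.05 and 7.46 in ICN2-negative arrays and at 4.40, 7.75 and 8.12 in ICN2-positive arrays. In replicate 1 it was at -2.72 relative to the ICN2-negative mean and under that array's 40th percentile of 5.30, where an intensity has little meaning as a level, while in replicates 2 and 3 it was above every ICN2-negative array. Its difference was -0.37 ± 1.00 with all arrays (adjusted p = 0.838) and 0.81 without replicate 1 (adjusted p = 0.105). Ifit3, whose promoter also holds 2 ISRE matches, was at 6.60, 6.80 and 6.74 in ICN2-negative arrays and at 6.61, 6.35 and 6.56 in ICN2-positive arrays. Replicate 1 did not stand apart there (difference -0.21 ± 0.10, adjusted p = 0.245, and -0.26 without it). Ifit2 differed by -0.33 ± 0.18 (adjusted p = 0.301) and by -0.14 without replicate 1.

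Mx1 and Rsad2 were lower on all ICN2-positive arrays without passing the test. Mx1 encodes an antiviral GTPase, and its promoter is the one used in the Mx1-cre transgene. It was at 6.50, 6.45 and 6.37 in ICN2-negative arrays and at 4.95, 6.00 and 5.37 in ICN2-positive arrays. ICN2-positive replicate 1 was under the 40th percentile, and replicate 3 was just above that of its array (5.28). The difference was -1.0 ± 0.26 (adjusted p = 0.0895) with all arrays and -0.76 without replicate 1 (adjusted p = 0.0969). It passed in a single leave-one-out fit, that without ICN2-positive replicate 2 (-1.28, adjusted p = 0.0333). Weighting the arrays by their spread also brought Mx1 past the threshold (adjusted p = 0.0106), but that fit called far more genes over the whole array than the main one. Mx2 lay between 3.41 and 4.07 on the 6 arrays, under the 40th percentile on each.

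Rsad2 encodes viperin, an enzyme that makes a chain-terminating nucleotide, and Cmpk2, the next gene on chromosome 12, encodes a nucleotide kinase. Rsad2 was at 11.46, 10.94 and 10.90 in ICN2-negative arrays and at 9.56, 10.59 and 10.58 in ICN2-positive arrays (difference -0.85 ± 0.33, adjusted p = 0.169, and -0.51 without replicate 1). Cmpk2 was at 10.37, 10.57 and 10.40 in ICN2-negative arrays and at 10.50, 10.75 and 10.92 in ICN2-positive arrays (difference 0.28 ± 0.13, adjusted p = 0.232, and 0.39 without replicate 1). The neighbours therefore had differences of opposite sign, and neither passed. A dimmer Rsad2 probe set differed by -0.88, and another, under the 40th percentile on all arrays, by 0.11. The dimmer Cmpk2 probe set was at 8.63 to 8.79 in ICN2-negative arrays and at 9.11, 9.41 and 9.55 in ICN2-positive arrays. Its groups did not overlap, and its difference of 0.65 was not called.

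The guanylate-binding proteins Gbp2 and Gbp3 act against intracellular pathogens. Gbp3 was at 10.55, 11.42 and 11.49 in ICN2-negative arrays and at 8.97, 10.64 and 10.59 in ICN2-positive arrays. The groups overlapped through ICN2-negative replicate 1 (difference -1.09 ± 0.53, adjusted p = 0.249). That was the most negative difference of the members with all arrays, whereas without replicate 1 it was -0.54 and Mx1 had the most negative, at -0.76. Gbp2 was at 7.53 to 8.30 in ICN2-negative arrays and at 6.70, 8.79 and 8.52 in ICN2-positive arrays, so that replicates 2 and 3 were above all controls (0.15 ± 0.59, adjusted p = 0.888, and 0.80 without replicate 1, adjusted p = 0.134).

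**Figure D3:**
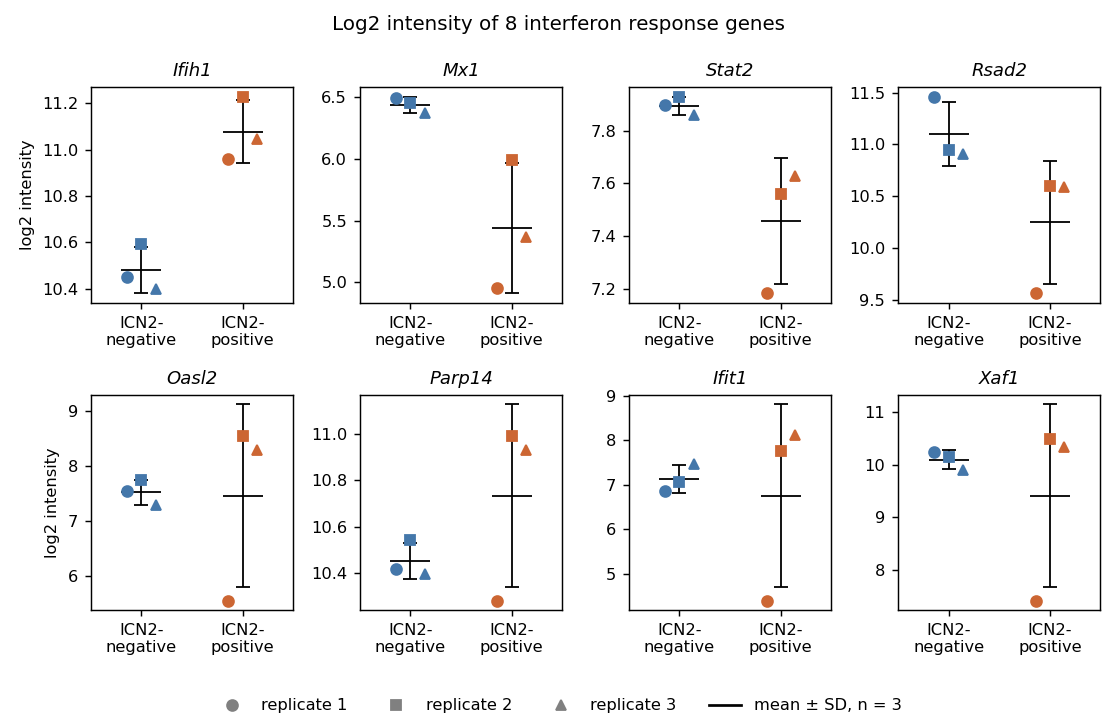
Log2 intensity of 8 interferon response genes on each array, by group, with the mean and SD (n = 3). Ifih1 is higher on all 3 ICN2-positive arrays, Mx1, Stat2 and Rsad2 are lower on all 3, and in Oasl2, Parp14, Ifit1 and Xaf1 replicate 1 lies below and replicates 2 and 3 above the ICN2-negative arrays.

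Usp18 removes the ubiquitin-like protein ISG15 and restrains the interferon receptor, and Herc6 is the main ISG15 ligase of the mouse. Usp18 was at 9.13, 9.02 and 8.85 in ICN2-negative arrays and at 7.14, 9.47 and 9.35 in ICN2-positive arrays. Replicate 1 was far below the controls and the other ICN2-positive arrays above all of them (-0.35 ± 0.64, adjusted p = 0.755, and 0.41 without replicate 1, adjusted p = 0.103). Herc6 differed by -0.11 ± 0.18 and by 0.03 without replicate 1. Among the ADP-ribosyltransferases, Parp14 was at 10.42, 10.54 and 10.40 in ICN2-negative arrays and at 10.28, 10.99 and 10.93 in ICN2-positive arrays. It differed by 0.28 ± 0.20 with all arrays (adjusted p = 0.413) and rose by 0.51 ± 0.08 without replicate 1 (adjusted p = 0.035). The dimmer Parp14 probe set, above the filter limit on all arrays, did not share that rise. It differed by -0.02 with all arrays and by -0.08 without replicate 1. Parp9, close to Parp14 on chromosome 16, differed by 0.11 ± 0.22 and by 0.33 without replicate 1 (adjusted p = 0.222).

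Other effectors showed the full range of patterns. Xaf1, an interferon-induced gene that promotes cell death, was at 10.24, 10.15 and 9.89 in ICN2-negative arrays and at 7.41, 10.48 and 10.34 in ICN2-positive arrays. Replicate 1 stood far below the other 5 arrays (-0.68 ± 0.85, adjusted p = 0.636, and 0.32 without replicate 1). The other Xaf1 probe set was highest in replicate 1, at 6.65 against 4.46 to 5.18 in ICN2-negative arrays, and lay under the 40th percentile on the other 5 arrays. Rtp4 had the most positive difference without replicate 1, and was at 9.49, 8.77 and 8.30 in ICN2-negative arrays and at 7.25, 10.26 and 10.22 in ICN2-positive arrays (0.39 ± 0.89 with all arrays, adjusted p = 0.805, and 1.38 without replicate 1, adjusted p = 0.0958). Bst2, the tether of budding virus, was 10.34 in replicate 1 and 10.89 to 11.14 elsewhere, and Trim30a was 10.30 in replicate 1 and 11.62 to 11.79 elsewhere. Ifi27, whose probe set may read several transcripts, was 9.92 in replicate 1 and 11.72 to 11.89 elsewhere. Bst2, Trim30a and Ifi27 differed by -0.26, -0.52 and -0.65 with all arrays and by -0.05, -0.06 and -0.04 without replicate 1. The exonuclease gene Isg20 and the RNA editing gene Adar lay near the controls in replicate 1, at 12.78 (12.68 to 12.76 in ICN2-negative arrays) and 9.53 (9.56 to 9.62). They differed by -0.06 and 0.19, and by -0.13 and 0.31 without it.

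Ifi35 was highest in replicate 1, at 13.29, and was at 12.73 and 12.84 in the other ICN2-positive arrays and at 12.72, 12.59 and 12.47 in ICN2-negative arrays. The groups did not overlap, with a difference of 0.36 ± 0.16 (adjusted p = 0.225, and 0.19 without replicate 1), and its probe set too may read several transcripts. Dimmer Ifi35 probe sets differed by 0.67, with groups that did not overlap, and by 0.41, and were not called. Cxcl10, a chemokine that draws activated T cells, was at 5.41, 6.86 and 5.47 in ICN2-negative arrays and at 6.07, 7.81 and 5.91 in ICN2-positive arrays. Replicate 2 was the highest array of each group, and the difference of 0.68 ± 0.65 did not pass (adjusted p = 0.535, and 0.95 without replicate 1). The adjacent class I presentation genes Psmb9, Tap1 and Psmb8, which cut and move peptides, differed by -0.10 ± 0.27, 0.09 ± 0.23 and -0.02 ± 0.12, and by 0.19, 0.33 and 0.09 without replicate 1. All 3 were lowest in replicate 1 and highest in replicate 2.

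In replicate 1, members with and without an ISRE match were both mostly low: replicate 1 was the lowest array in 11 of 14 tested members with a match and in 11 of 15 with a promoter but no match. Of the 14 with a match, 8 lay at least 1 below the ICN2-negative mean, with a median of -1.10. Of the 15 with none, 4 did so, with a median of -0.41. Without replicate 1 the medians were 0.07 with a match and 0.31 with none. These values are a description of short windows, and members without a match include Xaf1, Oasl2, Irf1 and Irf7.

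**Figure D4:**
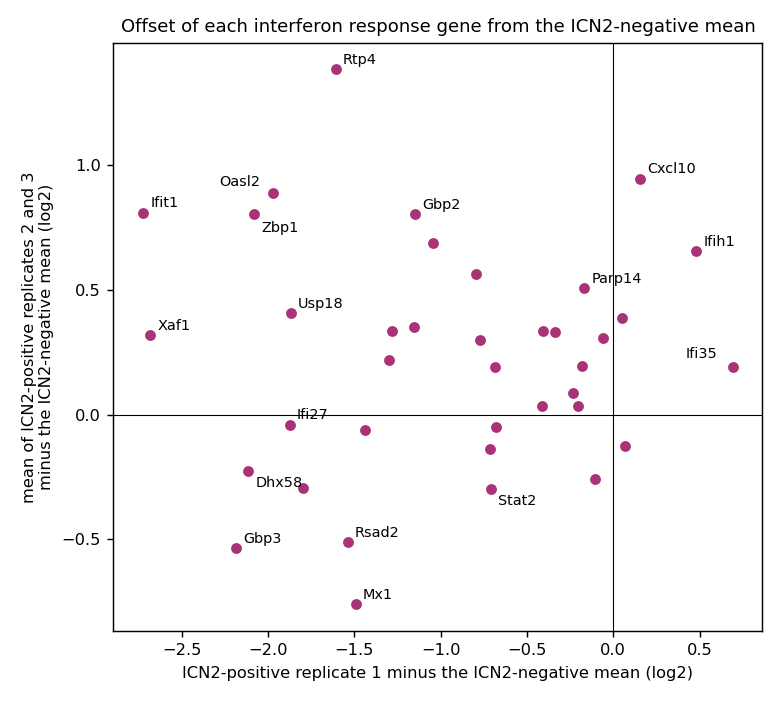
Each point is an interferon response gene: its value in ICN2-positive replicate 1 (x) and its mean in ICN2-positive replicates 2 and 3 (y), both as log2 intensity minus the ICN2-negative mean. Of the 38 genes 5 lie right of 0 on x, and 26 lie above 0 on y.

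The rest of the interferon system was read from 5 further lists, in which 92 of 122 genes were tested. Of these 3 were called higher and 2 lower (limma, adjusted p under 0.05), which is 5.43% beside 4.36% of all genes. The 2 lower include Tlr3, which reached the filter only through the ICN2-negative arrays, so the share is not read as differing from that of all genes. Without replicate 1, 7 were higher and 3 lower, which is 10.9% of the 92 beside 5.98% of all genes (2.91% higher and 3.08% lower). Replicate 1 was left out after its values were seen. It was the lowest array in 51 of the 92 genes (55.4%, beside 26.2% of all genes), so leaving it out had to raise the differences of those. The share without replicate 1 is therefore not read as a result either. Of the interferon ligand genes 10 were read and 6 of them, Ifnb1 and Ifng included, did not reach the filter. The 4 tested did not pass, with the smallest p in Ifna5 (-0.20 ± 0.11, adjusted p = 0.305) and Ifna1 (-0.22 ± 0.14, adjusted p = 0.366).

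Tlr3, the endosomal receptor for polyIC, was called lower, on a probe set that reached the filter only through the ICN2-negative arrays. It was at 8.27, 6.83 and 7.02 in ICN2-negative arrays and at 4.07, 5.33 and 4.30 in ICN2-positive arrays, of which only replicate 2 was above the 40th percentile. The groups did not overlap, and the fitted difference was -2.81 ± 0.50 (adjusted p = 0.044), taken in part against values under the 40th percentile. None of the 6 leave-one-out fits kept the call (adjusted p = 0.0522 to 0.134, and -2.56 with adjusted p = 0.0675 without replicate 1), and it was also lost with no filter (adjusted p = 0.0501). This probe set may read several transcripts, and the other Tlr3 probe set, under the 40th percentile on all arrays, differed by -0.44. The other 11 tested genes of nucleic acid sensing did not pass. They include Myd88, the adaptor of most Toll-like receptors (0.40 ± 0.08, adjusted p = 0.0568), and Ikbke, a kinase that activates Irf3 and Irf7 (-1.25 ± 0.30, adjusted p = 0.0773).

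Ifnar2, a chain of the type I interferon receptor, fell and the other 11 tested genes of receptors and transducers did not pass. It was at 10.71, 10.50 and 10.68 in ICN2-negative arrays and at 10.16, 10.03 and 10.08 in ICN2-positive arrays. Its difference was -0.54 ± 0.08, or 1.46-fold (adjusted p = 0.0317), with every ICN2-positive array below every ICN2-negative array. The call was kept without replicate 1 (-0.58, adjusted p = 0.0358) and lost when any ICN2-negative array, or ICN2-positive replicate 2 or 3, was left out (adjusted p = 0.0712 to 0.131). The other Ifnar2 probe sets differed by -0.30 and -0.43 and were not called. Irf8, a transcription factor of monocyte and dendritic progenitors, was at 12.13, 12.51 and 12.43 in ICN2-negative arrays and at 6.37, 10.77 and 10.46 in ICN2-positive arrays. It was not called with all arrays (-3.15 ± 1.19, adjusted p = 0.164) and fell by 1.74 on the log2 scale without replicate 1 (adjusted p = 0.0125). Of 12 inhibitors of the signal none passed. Cish, which Stat5 induces, had the smallest p (1.93 ± 0.46, adjusted p = 0.0757), followed by the phosphatase gene Ptpn6 (0.38 ± 0.09, adjusted p = 0.079, and adjusted p = 0.0454 without replicate 1).

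Of 52 further interferon response genes 3 rose and 49 did not pass. Ifitm1, which blocks the entry of viruses, was at 12.22, 12.28 and 12.14 in ICN2-negative arrays and at 12.99, 13.10 and 12.93 in ICN2-positive arrays. It rose by 0.79 ± 0.08, or 1.73-fold (adjusted p = 0.00975), and lost its call only without ICN2-negative replicate 3 (adjusted p = 0.0615) among the 6 leave-one-out fits. Samhd1, which breaks down nucleotides that viruses need, was at 10.83, 11.05 and 11.04 in ICN2-negative arrays and at 11.84, 11.57 and 11.78 in ICN2-positive arrays (0.75 ± 0.11, adjusted p = 0.0261). Its call was kept without ICN2-positive replicate 1 or 2 and lost without any ICN2-negative array or without ICN2-positive replicate 3, with adjusted p = 0.0631 to 0.101, and averaging its probe sets also lost it (adjusted p = 0.0674). Daxx, a histone chaperone gene, differed by 0.39 ± 0.07 (adjusted p = 0.0416), and missed the threshold without any single array (adjusted p = 0.0507 to 0.144). In Ifitm1, Samhd1 and Daxx replicate 1 lay with the other ICN2-positive arrays, above all controls. In 34 of the 52 genes replicate 1 was the lowest array, as in most members.

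**Figure D5:**
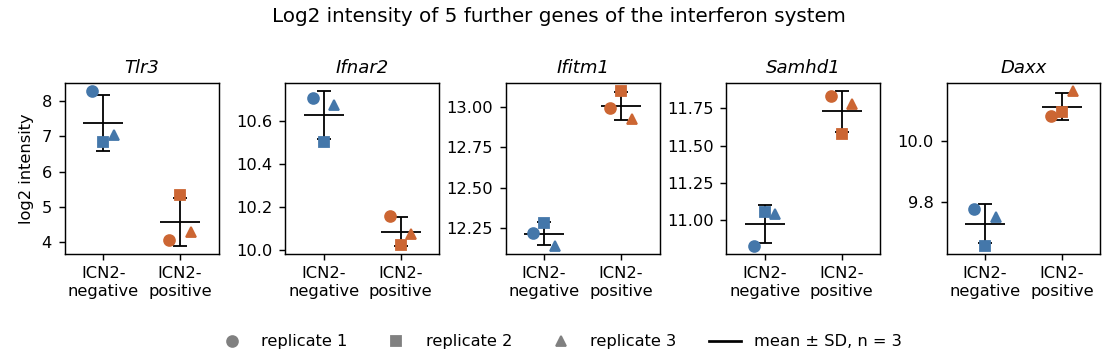
Log2 intensity of 5 further genes of the interferon system on each array, by group, with the mean and SD (n = 3). Tlr3 and Ifnar2 are lower and Ifitm1, Samhd1 and Daxx higher on all 3 ICN2-positive arrays, and replicate 1 lies within its group's side in each. Tlr3 reached the filter only through the ICN2-negative arrays.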

How the data were processed

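The authors' deposited values are linear intensities, 5.13 to 24678.6, with a single value for each probe set on each array. RMA was named for them in the submitters' processing notes, whose version of it is not known here. RMA gives all arrays nearly the same distribution (median log2 6.05 to 6.09), so a change in total RNA per cell would not be seen, and no detection call was used. The labels' protocols state amplification from 5 ng of RNA.

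Here log2 was taken. Of 45101 probe sets, 34945 had 1 gene in the platform annotation (control probe sets left out), 932 several and 9211 none, and only the first kind was named. The 39 members read matched RefSeq (GRCm38.p6) by identifier with no symbol changed. Probe sets were filtered at the 40th percentile and the brightest was kept per gene. Sample groups come from the labels. Groups were compared with lmFit and eBayes of limma 3.58.1 (R 4.3.3) without covariates, adjusted by Benjamini-Hochberg over 12837 genes, with a threshold of 0.05. The procedure was tested on simulated data with independent noise of equal spread in both groups. The members did not have equal spread, so that setting differed from theirs. Errors are standard errors of the limma fit. Shares over all genes stand beside shares of members. The members and the lists were chosen with earlier results of these data known. Named were members past the threshold, up to 4 per role by p, those with the largest differences or highest and lowest means, and per further list those past the threshold or the first 2 by p. The remaining members are given so that each is accounted for. Irf8, Notch2, the promoters printed and the array left out for comparison (ICN2-positive replicate 1) were chosen after their values were seen. Alternatives covered the filter, normalization, variance model, probe set choice, replicate number and each array left out. Probe sets of the Oas, Ifit, Mx, Gbp and Ifitm families may also read a near relative.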

Additional observations from a re-analysis of the deposited data

How the results depend on the processing

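Array weights, which give less weight to an array that differs from its group, called 3262 of the 12837 genes tested, beside 560 in the main fit. Of the 38 members they called 6 (4 higher, 2 lower), and of the 92 further interferon genes 30. More calls among members there go with more calls over the whole array. The median difference of the members was then 0.22 instead of -0.11. Trended eBayes called 847 genes. The replicate number as a block called 340 genes, no member (Ifih1 at adjusted p = 0.0527, limma, 0.60) and 2 further interferon genes. The numbers were not taken to pair the samples, since the labels do not state that they do. Correlations of same-numbered deviations over genes were 0.18, 0.14 and 0.09, and those of other pairs -0.22 to 0.16. Deviations from a mean of 3 arrays depend on each other, so these values cannot decide whether samples were paired. With no filter 3 further interferon genes were called. Daxx missed the threshold there and with trended eBayes (adjusted p = 0.0522 in both), and Tlr3 was not tested at the 60th percentile or once the less specific probe sets were dropped. With 1 array left out, 99 to 768 genes, 0 to 3 members and 0 to 10 further interferon genes were called, and the median difference of the members was -0.31 to 0.26. Among the other alternatives the filter at the 60th percentile, median centring, normalizing again, robust eBayes and the choice of probe sets kept 1 member called, Ifih1. The number of arrays limits the precision.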
